A study of Homo sapiens with 4 samples.

Results

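The genes described here are the chemokines CCL22 and CCL17, their shared receptor CCR4, and related chemokines and receptors that T cells use (CCL1, CCL3, CCL4, CCL5, CCR8 and CCR10). These 9 genes are rows of a table of 58735 genes. They were picked by name, and the set was put together because CCL22 differed strongly between the libraries of the knockdown group, so the values of CCL22 are a description and carry no test. The samples are cultures of Myla, a cell line of mycosis fungoides, a T cell lymphoma of the skin. The shFOXM1 group (labelled FOXM1 knockdown, 2 libraries) was transduced with a lentivirus carrying short hairpin RNA against FOXM1, a forkhead factor that drives genes of cell division. The shControl group (labelled WT, 2 libraries) received the same kind of vector with a scrambled hairpin. Each 1 mL culture received 10 uL of medium with virus, a change of medium 24 h later and another 72 h of culture before RNA was taken. The labels do not say whether the shFOXM1 libraries carry the same hairpin or different hairpins, so a difference between hairpins and a difference between cultures cannot be told apart. Nor do they tell separate transductions from repeats of 1 transduction, so each p-value rests on the spread of these libraries alone, and that spread may be technical.

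Chemokines are small secreted proteins that attract cells carrying the matching receptor, a protein with a chain that crosses the membrane several times and signals through inhibitory G proteins. CCL17 and CCL22 are best known as products of dendritic cells and macrophages, are induced by interleukin 4 and 13 through STAT6 and by NF-kB, and attract CCR4-bearing Th2, regulatory and skin-homing T cells. CCR4 is found on malignant T cells of mycosis fungoides and is the target of an antibody used against that disease. CCL1 is the ligand of CCR8, CCR10 guides T cells to CCL27 in the skin, and CCL3, CCL4 and CCL5 are inflammatory chemokines.

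The region just before the start of CCL22 is shown because the set was chosen for CCL22. These are the 250 bases before the RefSeq start on the plus strand, chr16:57358533-57358782 of GRCh38.p14, in which capitals mark the match to the NF-kB consensus.
CCL22: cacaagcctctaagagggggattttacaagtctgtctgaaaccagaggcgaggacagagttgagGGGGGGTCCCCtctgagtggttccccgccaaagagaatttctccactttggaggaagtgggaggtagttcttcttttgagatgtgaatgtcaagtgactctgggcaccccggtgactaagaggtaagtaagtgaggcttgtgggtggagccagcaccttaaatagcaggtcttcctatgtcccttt
The capitals hold a pair of overlapping matches, from 186 to 177 and from 185 to 176 bases before the start. A match on either strand occurred in 9.96% of all 35116 RefSeq windows of this length, and of the 4 members with such a window CCL1 also held one. The window of CCL22 held no match on either strand to TTCNNNNGAA (a STAT6 pattern), TTCNNNGAA (other STAT factors), TGANTCA (AP-1), TAAACA (forkhead factors) or TTTGAA (an element of cell cycle genes). These motifs were in 5.38%, 6.57%, 6.57%, 11% and 13.3% of all windows in the same order. A match or its absence describes the letters of the window and not binding.

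Between 14147084 and 15017728 reads lay behind the FPKM values (fragments scaled by gene length and a factor for each library) of each library. That factor did not follow depth alone. The total it implied differed from the recovered reads by -1.44% and 3.80% in shFOXM1 1 and 2, and by 0.319% and -0.173% in shControl 1 and 2. FOXM1 was at 9.27 and 5.59 FPKM in shFOXM1 1 and 2, against 26.5 and 27.6 FPKM in shControl 1 and 2, and was lower in both libraries labelled as knockdown. Limma's test gave it a log2 fold change of -1.77 (SE 0.23) with an adjusted p of 0.173, which missed the threshold of 0.05. Over all 12033 genes tested limma called 0, while 1061 were higher and 1082 lower at unadjusted p under 0.05. The voom test of the recovered reads called 0 as well. With library weights the voom test called 20 higher and 9 lower, FOXM1 among the lower ones (log2 fold change -1.89, adjusted p = 0.0202). Those weights were 0.381 and 0.380 for shFOXM1 1 and 2, against 2.63 and 2.62 for shControl 1 and 2. That fit therefore took its spread mainly from the controls. The libraries held T cell transcripts, with 8 of 10 listed T cell markers above the level tested. CD4 was at 0 reads in every library and CD3E at 1 and 6 reads in shFOXM1 against 4 and 2 in shControl. Differences between the shFOXM1 libraries were wider over all genes tested (SD of the log2 difference 0.424) than those between the shControl libraries (0.263).

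CCL22, a ligand of CCR4, was higher in both shFOXM1 libraries and by very different amounts. Its level was 11 and 83.9 FPKM in shFOXM1 1 and 2, against 3.34 and 4.4 FPKM in shControl 1 and 2. The groups did not overlap, and shFOXM1 2 stood far above the other 3 libraries. The values rested on 475 and 3745 reads in shFOXM1 and on 139 and 190 reads in shControl, so counting error was small beside the gap. The gene (ENSG00000102962) lies on the plus strand of chromosome 16 from 57358772 to 57366190 in GRCh38. Against the mean of the controls CCL22 was 2.83 times as high in shFOXM1 1 and 21.7 times as high in shFOXM1 2. The mean was 47.4 ± 51.6 FPKM in shFOXM1 and 3.87 ± 0.745 FPKM in shControl (SD, n = 2 each). The SD of the shFOXM1 group exceeded its mean, so that mean stands for neither library. In bulk RNA, more cells that make a transcript and more of it per cell cannot be told apart.

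Within the shFOXM1 group, CCL22 was 7.66 times as high in shFOXM1 2 as in shFOXM1 1 (exact 95% interval 6.96 to 8.44, which covers counting error only). The same ratio between shControl 2 and shControl 1 was 1.31 (1.05 to 1.65). On the log2(FPKM + 1) scale the gap within shFOXM1 was 2.83, rank 3 by size and rank 2 among upward gaps over the genes tested. Of these genes, 3.42% were at least 2-fold higher in shFOXM1 2 than in shFOXM1 1. The difference of the group means on that scale was 2.72, rank 1 of the 12033 genes. Its size was 1.30 without shFOXM1 2 and 4.13 without shFOXM1 1, so 1 library decides how large it is. These ranks describe the gene for which the set was chosen.

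CCL17, the other ligand of CCR4, lay far lower and had the same order of libraries within shFOXM1. It was at 0.872 and 3.81 FPKM in shFOXM1 1 and 2, against 0.455 and 0.547 FPKM in shControl 1 and 2. These levels came from 8 and 36 reads in shFOXM1 and from 4 and 5 reads in shControl. Both shFOXM1 libraries were above both controls, but the 95% counting interval of shFOXM1 1, from 0.376 to 1.72 FPKM, held both control values, while that of shFOXM1 2 ran from 2.67 to 5.28 FPKM and held none of the other libraries. CCL17 reached 1 FPKM in only 1 library, under the level tested, and has no p. Between shFOXM1 2 and shFOXM1 1 its ratio was 4.37 (2.00 to 10.9), against 1.20 (0.259 to 6.06) between the controls.

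The level of CCL22 per length relative to that of CCL17 was 12.6 (6.33 to 29.3) in shFOXM1 1 and 22 (15.9 to 31.5) in shFOXM1 2, against 7.36 (2.81 to 27.4) in shControl 1 and 8.04 (3.39 to 25.1) in shControl 2. The ratio was highest in shFOXM1 2, and those of the other 3 libraries rest on 4 to 8 reads of CCL17. The ratios hold the values of CCL22 for which the set was chosen, so they were not tested.

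**Figure D1:**
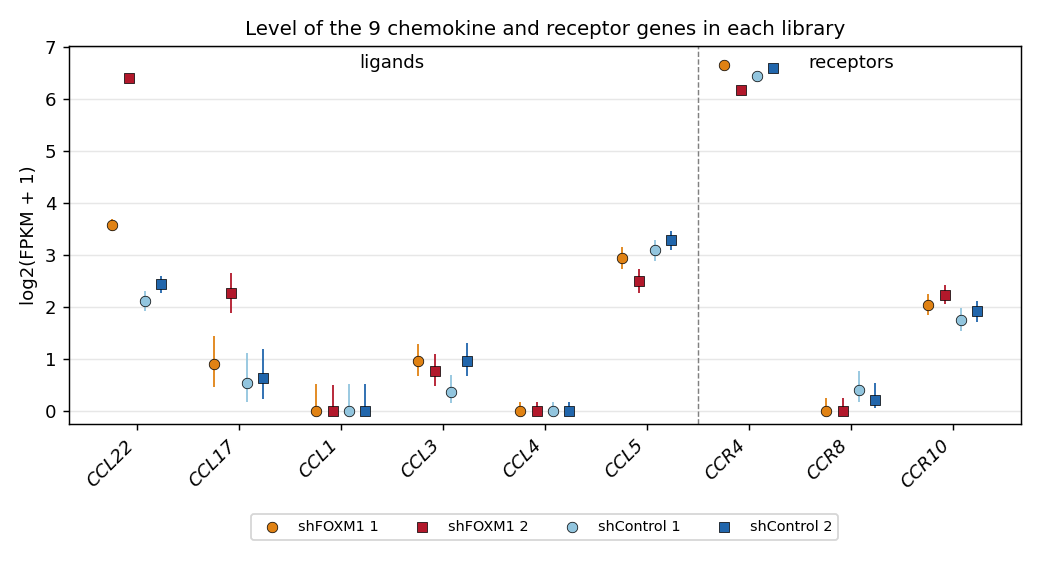
Level of each of the 9 genes in each library, as log2(FPKM + 1), with bars for the exact 95% counting interval. CCL22 in shFOXM1 2, at 83.9 FPKM, reached the range of CCR4, while CCL1 and CCL4 were at 0 in every library.

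CCL5, an inflammatory chemokine of T cells, had lower values in shFOXM1. It was at 6.70 and 4.64 FPKM in shFOXM1 1 and 2, against 7.50 and 8.70 FPKM in shControl 1 and 2. The groups did not overlap, and shFOXM1 2 was the lowest. Limma gave a log2 fold change of -0.46 (SE 0.19) with an adjusted p of 0.306, short of the threshold. Without shFOXM1 1 the value was -0.69 with an adjusted p of 0.0259 in limma, against -0.24 (adjusted p = 0.266) once shFOXM1 2 was left out, in fits that take their spread from the pair of controls. CCL5 (ENSG00000271503) spans positions 35871491 to 35880793 of chromosome 17, on the minus strand. An antisense gene that overlaps it, AC015849.1, held 1 and 3 reads in shFOXM1 and 3 and 3 in shControl, next to 107 to 194 reads of CCL5.

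CCL3, another inflammatory chemokine, was under the level tested at 0.95 and 0.703 FPKM in shFOXM1 1 and 2, against 0.283 and 0.953 FPKM in shControl 1 and 2. Its groups overlapped, and the spread between the controls was wider than that within shFOXM1. The values rested on 21 and 16 reads in shFOXM1 and 6 and 21 in shControl. CCL1 and CCL4 had 0 reads in all 4 libraries. A count of 0 allows up to 0.342 and 0.333 FPKM of CCL1 in shFOXM1 1 and 2, and up to 0.357 and 0.343 FPKM in shControl 1 and 2, taking 3 reads as the limit. For CCL4 the limits were 0.0997 and 0.0969 FPKM in shFOXM1 and 0.104 and 0.1 FPKM in shControl. CCL3L1 and CCL4L2, near-identical copies of CCL3 and CCL4, were also at 0 reads in every library. How reads that match both copies were counted is not given in the sources used here, so the values of CCL3 and CCL4 are uncertain.

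CCR4, the receptor of CCL17 and CCL22, was high in every library. It was at 99.0 and 70.9 FPKM in shFOXM1 1 and 2, against 85.4 and 95.2 FPKM in shControl 1 and 2. The groups overlapped, with shFOXM1 1 the highest library and shFOXM1 2 the lowest. Limma gave a log2 fold change of -0.10 (SE 0.19) with an adjusted p of 0.8. Its direction turned without shFOXM1 2, to 0.13. CCR4 (ENSG00000183813, plus strand of chromosome 3 from 32951574 to 32956349) rested on 3346 to 4537 reads per library. The ratio of shFOXM1 2 to shFOXM1 1 was 0.716 (0.685 to 0.749), so CCR4 and CCL22 lay in opposite orders within the shFOXM1 group.

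Because both values are per length, the level of CCL22 can be set against that of its receptor in the same library. That ratio was 0.111 (0.1 to 0.122) in shFOXM1 1 and 1.18 (1.13 to 1.24) in shFOXM1 2, against 0.0392 (0.0328 to 0.0464) in shControl 1 and 0.0462 (0.0397 to 0.0534) in shControl 2. The transcript of the ligand stood above that of the receptor in shFOXM1 2 alone among the 4 libraries. Like the ratios to CCL17, these hold the values of CCL22 for which the set was chosen, so they were not tested. They compare transcripts and not proteins.

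CCR10, the receptor for CCL27, had somewhat higher values in shFOXM1. It was at 3.12 and 3.71 FPKM in shFOXM1 1 and 2, against 2.37 and 2.77 FPKM in shControl 1 and 2. The groups did not overlap, and the gap between them was no wider than the gap within either. Limma gave a log2 fold change of 0.31 (SE 0.15) with an adjusted p of 0.363. CCR10 (ENSG00000184451, minus strand of chromosome 17 from 42678889 to 42683917) overlaps CNTNAP1, a neuronal gene on the other strand. Without a stated strand setting, reads from the stretch that both share, 42682613 to 42683917, cannot be told apart. CNTNAP1 was at 11.3 and 10.1 FPKM in shFOXM1 against 8.70 and 9.04 FPKM in shControl. AC100793.2 on the other strand and AC100793.3 on the same strand also overlap CCR10, each with at most 11 reads per library.

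CCR8, the receptor of CCL1, was close to absent. It had 0 reads in both shFOXM1 libraries, against 6 and 3 reads in shControl 1 and 2, or 0.321 and 0.154 FPKM. A count of 0 allows up to 0.154 and 0.149 FPKM in shFOXM1 1 and 2. The value of shControl 1 lay above both limits, while that of shControl 2 was close to them. The exact counting intervals, 0.118 to 0.698 FPKM in shControl 1 and 0.0318 to 0.451 FPKM in shControl 2, reached below both limits. CCR8 thus had fewer reads in both shFOXM1 libraries than in both controls, but too few to settle the direction or the size of a difference. It was under the level tested and has no p.

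Of the 9 members, 4 passed the filter of at least 1 FPKM in at least 2 libraries (CCL22, CCL5, CCR4 and CCR10). Limma called 0 of the 3 that carry a test, beside 0.0% of all genes tested, and 0 of them had an unadjusted p under 0.05 in limma or in voom. Both shFOXM1 libraries lay above both controls for 2 of the 4 (CCL22 and CCR10), as they did for 27.3% of all genes tested, and below both for 1 (CCL5), as for 25.9%. With 4 genes these shares say nothing particular of the set. In order of mean level over the shFOXM1 libraries the members ran CCR4, CCL22, CCL5, CCR10, CCL17 and CCL3, with CCR8, CCL1 and CCL4 at 0. In shControl the order was CCR4, CCL5, CCL22, CCR10, CCL3, CCL17 and CCR8. Neighbours in that order whose ranges over the libraries overlapped were CCR4 and CCL22, CCR10 and CCL17, and CCL17 and CCL3 in shFOXM1, and CCL3 and CCL17 in shControl.

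**Figure D2:**
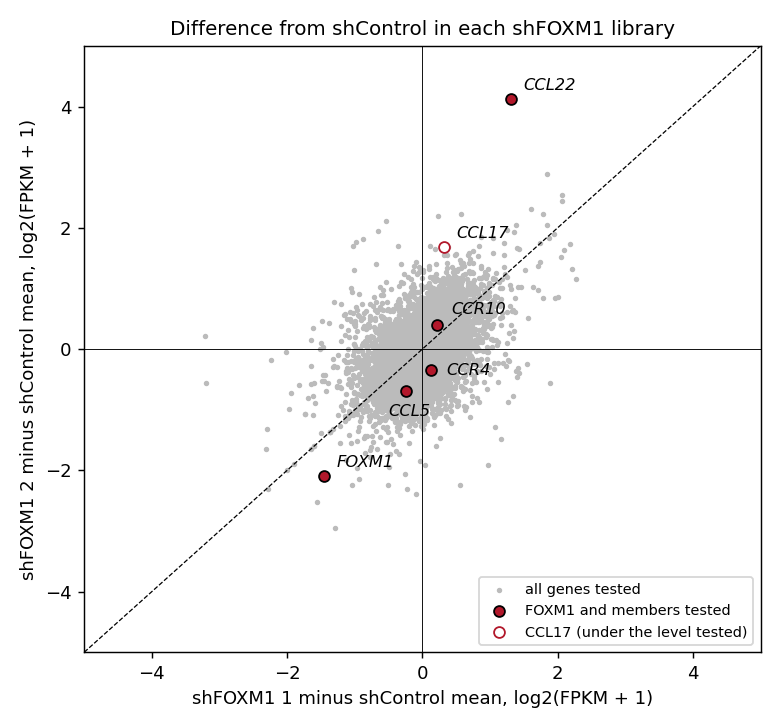
Difference from the shControl mean in shFOXM1 1 (x axis) and shFOXM1 2 (y axis), both in log2(FPKM + 1), for all 12033 genes tested (grey), FOXM1 and the tested members (red) and CCL17 (open). CCL22 stands at 1.30 and 4.13, above every other gene on the y axis, and CCR4 at 0.13 and -0.34.

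CCL22 and CCL17 are neighbours on chromosome 16, separated by 38.6 kb that holds CX3CL1, another chemokine gene. CX3CL1 had 0 and 10 reads in shFOXM1 1 and 2, against 6 and 10 in shControl 1 and 2, so it was close to absent and not high in shFOXM1 2 as its neighbours were. Within 100 kb on either side lay 12 genes in all, of which 6 were tested. DOK4, which codes for an adaptor protein of tyrosine kinases, was at 4.46 and 10.4 FPKM in shFOXM1 1 and 2, against 4.12 and 3.94 FPKM in shControl 1 and 2. It too was highest in shFOXM1 2 (limma log2 fold change 0.65, adjusted p = 0.403). CIAPIN1, COQ9, POLR2C and CCDC102A, the other tested genes of the region, had limma log2 fold changes of 0.24, 0.39, 0.01 and 0.10, none past the threshold. CIAPIN1, for example, was at 23.8 and 28.7 FPKM in shFOXM1 against 21.2 and 22.7 FPKM in shControl. This region was chosen after the values of CCL22 and CCL17 had been seen.

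**Figure D3:**
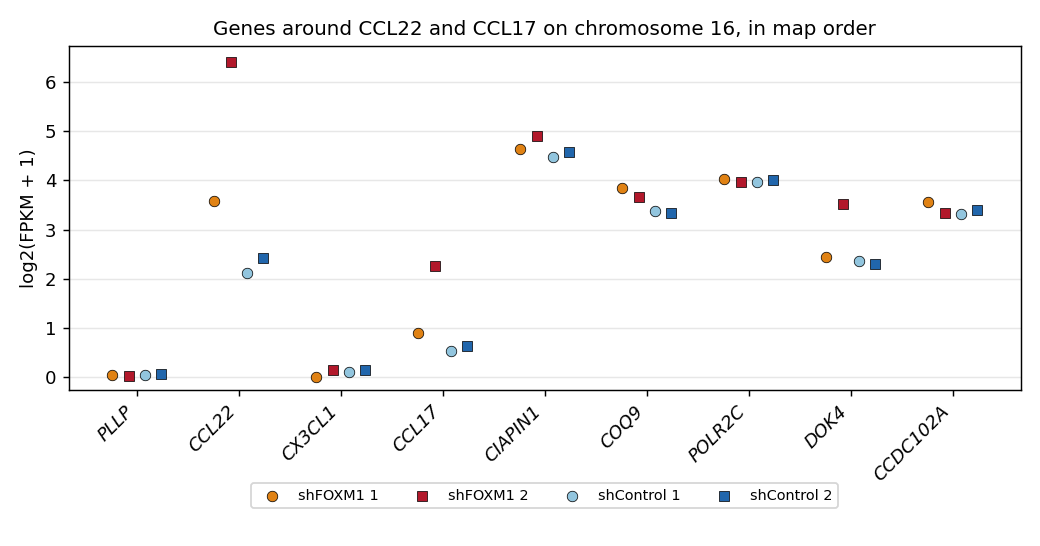
Level in each library, as log2(FPKM + 1), of the genes with reads within 100 kb of CCL22 and CCL17, in their order on chromosome 16. CCL22, CCL17, CIAPIN1 and DOK4 are highest in shFOXM1 2, while the 4 libraries of POLR2C lie between 14.5 and 15.3 FPKM.

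The genes most like CCL22 were taken as those at the smallest Euclidean distance from it in log2(FPKM + 1) centred over the 4 libraries, among 7240 genes with a mean of at least 5 FPKM. They were ERICD, HIST1H2AC, IZUMO4, SQSTM1 and TMCC2, at distances of 1.55, 1.73, 1.86, 1.89 and 2.05, against a median of 3.41. That median is close to the distance of a gene with no change at all. A large rise in both shFOXM1 libraries can be enough to fall below it. ERICD, a long noncoding RNA, was at 4.01 and 14.8 FPKM in shFOXM1 1 and 2, against 2.11 and 2.64 FPKM in shControl 1 and 2. SQSTM1, the autophagy receptor p62, was at 65.8 and 130 FPKM in shFOXM1 against 32.9 and 38.2 FPKM in shControl. All 5 had both shFOXM1 libraries above both controls and shFOXM1 2 the highest, an order that their choice by likeness to CCL22 favours. In shFOXM1 2 they reached between 3.4 and 8.41 times the control mean, below the 21.7 times of CCL22. The ratio of shFOXM1 2 to shFOXM1 1 was 3.69 for ERICD, 2.95 for TMCC2 and 1.98 for SQSTM1. It was only 1.43 for HIST1H2AC and 1.38 for IZUMO4, against 7.66 for CCL22. Reads of HIST1H2AC, a histone gene with near-identical copies, are uncertain. With 4 libraries, likeness of this kind carries little weight. By correlation, a measure other than distance that ignores the size of a change, 173 of the 7240 genes exceeded 0.99 with CCL22.

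Markers of the dendritic cells and macrophages that usually make CCL17 and CCL22 were mostly near 0, with 12 of 14 listed under the level tested. CD1A, CD1C, CD163, CLEC9A, CLEC10A and CLEC4C, 6 of the 14, were at 0 reads in all libraries. The summed level of the list was 16.9 and 12.9 FPKM in shFOXM1 1 and 2, against 19.0 and 16.3 FPKM in shControl 1 and 2. Most of it came from CSF1R, at 13.5 and 8.47 FPKM in shFOXM1 against 12.8 and 9.04 FPKM in shControl, and the rest mainly from ITGAX, at 2.81 and 3.98 FPKM in shFOXM1 against 5.55 and 6.48 FPKM in shControl. Within shFOXM1, ITGAX had the same order of libraries as CCL22 and CSF1R the opposite one, and their part in the CCL22 difference was not tested. FOXM1 was lower in shFOXM1 2 than in shFOXM1 1, and mitochondrial genes took 5.72 and 4.98% of reads in shFOXM1 1 and 2 against 5.93 and 5.88% in shControl, and their part in the CCL22 difference was not tested.

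Genes of the STAT6 and NF-kB routes that lead to CCL17 and CCL22 were mostly present. Of 20 listed, 17 were tested and limma called 0, with 11 higher and 6 lower by sign. At unadjusted limma p under 0.05, 3 were higher and 0 lower, beside 1061 and 1082 of all 12033 genes tested. The median log2 fold change was 0.12 beside 0.00 for all genes. NFKB2, the subunit of the alternative NF-kB pathway, was at 235 and 311 FPKM in shFOXM1 1 and 2, against 162 and 173 FPKM in shControl 1 and 2 (limma log2 fold change 0.69, SE 0.16, adjusted p = 0.189). BATF, an AP-1 factor of activated T cells, was at 146 and 163 FPKM in shFOXM1 against 92.4 and 104 FPKM in shControl (log2 fold change 0.65, SE 0.12, adjusted p = 0.176 in limma). Both shFOXM1 libraries lay above both controls in NFKB2 and BATF, which were named for their small unadjusted p. They did so for 6 of the 17 tested genes and lay below both for 3, beside 27.3% and 25.9% of all genes tested. NFKB1 was among the 3, at 23.8 and 14.3 FPKM in shFOXM1 1 and 2, against 24.0 and 26.6 FPKM in shControl 1 and 2. The ratio of shFOXM1 2 to shFOXM1 1 was 1.32 for NFKB2 and 1.11 for BATF, and in the same list 1.61 for RELB, 1.6 for JAK3, 0.6 for NFKB1 and 0.405 for IL13. RELA, the transactivating NF-kB subunit, and GATA3, the master factor of Th2 cells, had limma log2 fold changes of 0.28 (adjusted p = 0.277) and 0.25 (adjusted p = 0.302). STAT6 itself was at 44.5 and 36.1 FPKM in shFOXM1 against 36.5 and 39.3 FPKM in shControl. Of the cytokines known to induce CCL17 and CCL22, IL13 was at 67 and 27.2 FPKM in shFOXM1 1 and 2, against 30.6 and 36.6 FPKM in shControl 1 and 2, with overlapping groups. IL4 had at most 0.09 FPKM in any library and TSLP at most 0.03.

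**Figure D4:**
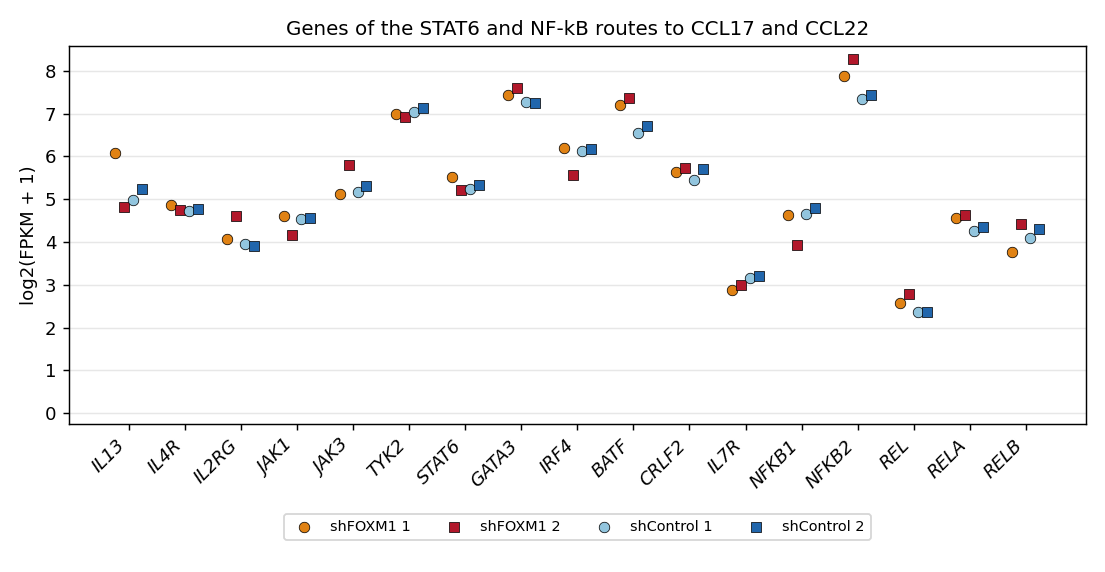
Level in each library, as log2(FPKM + 1), of the 17 tested genes of the STAT6 and NF-kB routes. NFKB2 and BATF lie higher in both shFOXM1 libraries than in both controls without passing the test. NFKB1 lies lower in both, also without passing, and STAT6 overlaps between groups.

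Other chemokines of the CC and XC families were missing from these cells. Of 22 listed, 21 are in the table, 19 had 0 reads in all libraries and 0 reached the level tested, with a summed level of at most 0.529 FPKM in any library. CCL22 and CCL5 were thus the only CC chemokines at 1 FPKM or more in at least 2 libraries, over the members and this list. Of 13 other receptors, 6 were at 0 throughout and 2 were tested. CCR7, which guides T cells to lymph nodes, was at 241 and 169 FPKM in shFOXM1 1 and 2, against 177 and 202 FPKM in shControl 1 and 2, with overlapping groups like those of CCR4 (limma adjusted p = 0.827). ACKR3, an atypical receptor that takes up CXCL12, was at 10.3 and 15.1 FPKM in shFOXM1 against 9.36 and 9.85 FPKM in shControl (limma adjusted p = 0.416).

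Genes that carry the signal of chemokine receptors were tested for 23 of 25 listed. Limma called 0, with 17 higher and 6 lower by sign and a median log2 fold change of 0.12. At unadjusted limma p under 0.05, 4 were higher and 1 lower, beside 1061 and 1082 of all 12033 genes tested. GNAI2, an inhibitory G protein subunit, was at 68.9 and 65.9 FPKM in shFOXM1 1 and 2, against 52.5 and 47.8 FPKM in shControl 1 and 2 (limma log2 fold change 0.42, SE 0.11, adjusted p = 0.196). RGS1, which shuts off such G proteins, was at 33.3 and 30.5 FPKM in shFOXM1 against 22.5 and 20.1 FPKM in shControl (log2 fold change 0.56, SE 0.12, adjusted p = 0.184 in limma). GNG2, a G protein gamma subunit, and GRK3, a kinase that desensitizes receptors, had limma log2 fold changes of 0.56 (adjusted p = 0.196) and -0.43 (adjusted p = 0.197). These 4 genes have the smallest unadjusted p of the list, which favours close replicates, and others of the list spread more widely, such as RGS16 with a ratio of shFOXM1 2 to shFOXM1 1 of 0.36.

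Of 13 listed genes of skin homing and adhesion, 11 were tested and limma called 0. By sign 3 were higher and 8 lower, with a median log2 fold change of -0.16. At unadjusted limma p under 0.05, 1 was higher and 0 lower, beside 1061 and 1082 of all 12033 genes tested. FUT7 and FUT4, which make the sugar ligand of selectins, were at 24.4 and 16 and at 6.07 and 7.24 FPKM in shFOXM1, against 13.3 and 13.7 and 4.22 and 4.71 FPKM in shControl. DPP4, a surface protease that trims CCL22, was at 24.7 and 11.6 FPKM in shFOXM1 1 and 2, against 28.2 and 27.1 FPKM in shControl 1 and 2 (limma log2 fold change -0.67, SE 0.35, adjusted p = 0.378). It was lowest in shFOXM1 2, the library highest in CCL22.

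Among the tested T cell markers limma called 0 of 8, with 2 higher and 6 lower by sign and a median log2 fold change of -0.13. At unadjusted limma p under 0.05, 0 were higher and 1 lower, beside 1061 and 1082 of all 12033 genes tested. TNFRSF8 (CD30, a marker of activated and lymphoma T cells) was at 49.5 and 47.2 FPKM in shFOXM1 1 and 2, against 65.8 and 78.0 FPKM in shControl 1 and 2 (limma log2 fold change -0.56, SE 0.13, adjusted p = 0.187). CD3G, CD247 and CD28, parts of the T cell receptor complex and its costimulator, had limma log2 fold changes of -0.20, 0.22 and -0.41, with adjusted p between 0.367 and 0.421.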

How the data were processed

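Messenger RNA of 4 libraries was measured. The authors deposited FPKM per gene, with the gene lengths used, per the file headers. Neither the aligner and counter nor their strand setting is stated in the sources used. Mouse builds, GRCm38 and mm10, are named in the submitters' processing notes, while 58690 of 58735 genes have the positions of human GENCODE release 29 (GRCh38). The columns named sh0 were taken as shControl and those named sh1 and sh2 as shFOXM1 1 and 2. Multiplied by length, 100% of the FPKM values were whole reads (tolerance 0.001 read), and depth and the exact 95% intervals come from those reads. Intervals and limits from 3 reads cover counting error only. Replicates were not 1 library deposited again, as their reads differed beyond sampling (chi-square per degree of freedom 36.5 for shFOXM1 and 3.93 for shControl, genes with at least 20 reads).

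The filter kept genes at 1 FPKM or more in 2 or more libraries. Limma 3.58.1 (R 4.3.3) tested log2(FPKM + 1), two-sided, using empirical Bayes moderation with a trend, with Benjamini-Hochberg adjustment over all 12033 genes and a threshold of 0.05. The log2(FPKM + 1) scale understates changes of low genes. For 2 against 2 the smallest two-sided exact permutation p is 0.333, so single values carry none. The script was tested on simulated data with the same spread in both groups. That check does not show how the test behaves with the wider spread of shFOXM1. The 9 members and 7 lists were chosen with earlier results of these data known. Named genes are FOXM1, the members, up to 4 genes per list with the smallest unadjusted p and the 5 genes nearest to CCL22. A gene that this rule took is not reported here. STAT6, IL4, IL13, TSLP, RELB, JAK3, NFKB1, RGS16, the marker genes at 0 or few reads, the copies and overlapping genes, and the genes near CCL22 were named after their values were seen. Promoter sequence is from RefSeq, GRCh38.p14.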

Additional observations from a re-analysis of the deposited data

How the results depend on the processing

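The count of called genes stayed at 0 higher and 0 lower under the alternatives run, other than voom with library weights, which called 20 higher and 9 lower, and leaving out an shFOXM1 library. With single libraries left out the calls ran from 0 to 1360 higher and from 0 to 1744 lower, calls that arose when the pair of controls alone gave the spread. CCL22 ran from 2.72 to 2.99 over the other alternatives and from 1.30 to 4.13 with single libraries left out, on the log2 scale. The gap of CCL22 within shFOXM1 ran from 2.83 to 2.97. With single libraries left out CCR4 ran from -0.34 to 0.13, turning direction without shFOXM1 2, and CCL3, which was not tested, ran from -0.10 to 0.51, turning without shControl 1. Adjusted p ran from 0.0122 to 0.753 for FOXM1, 0.0259 to 0.934 for CCL5, 0.0554 to 0.997 for CCR4 and 0.104 to 0.963 for CCR10. Over all results, 115 of 128 alternatives kept direction and side of the threshold or stayed within the spread. Many of these could not move a fold change, so the count overstates how much was tried. Median-of-ratios scaling divided every library by the same factor, 1.01. Changing the filter, the trend or the robust setting alters p alone, and CCL22 carries no p. Deviations from the group means of same-numbered libraries correlated at 0.0421 (2 pairs), and the replicate block called 0 genes. FOXM1 stayed at -1.77 under that block, which cannot change a fold change when each group holds the same replicate numbers. FPKM recomputed with recovered totals was chosen after seeing the data. The cause was not tested. Depth limits CCL17, CCL3 and CCR8, which rest on 36 reads or fewer per library.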

Other observations

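Some other genes stood, like IL13, in the opposite order to CCL22 within the shFOXM1 group. They were chosen after their values were seen. IL2RA, the alpha chain of the interleukin 2 receptor, was at 354 and 141 FPKM in shFOXM1 against 258 and 249 FPKM in shControl. RGS16, a regulator of G protein signals, was at 24.2 and 8.71 FPKM in shFOXM1 against 16.2 and 16.8 FPKM in shControl. In each of these genes 1 shFOXM1 library lay above and the other below both controls, so the group means hide the difference.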
